A study of Mus musculus with 8 samples.

Results

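The interleukins and their receptors were taken as every gene of the deposited tables whose symbol begins with Il and a digit, which gave 85 of 23284 genes. By role these are 39 ligand genes, 39 genes of receptor chains, 6 genes of decoys and antagonists and 1 enzyme gene, Il4i1, which the name rule also takes in. Whole lungs of C57BL/6 mice were measured by RNA sequencing. In 4 mice the transplanted bone marrow was triply n/i/eNOS-/-, that is, without neuronal (Nos1), inducible (Nos2) and endothelial (Nos3) nitric oxide synthase (NOS-null marrow). In the other 4 the transplanted marrow was wild type (WT marrow). All 8 recipients were wild type, so their own lung cells kept the 3 Nos genes. The share of blood cells that came from the donor is not given in the sources used here. All 8 lungs were taken after 3 days of hypoxia. Without lungs kept in normal air to compare, no value here measures a response to hypoxia. The labels do not say how the mice of a group relate, so a p-value reflects only how these samples vary, which may be technical. In whole lung fewer cells of a type and less RNA per cell cannot be told apart.

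Interleukins are secreted or released signals, mostly between immune cells and from epithelium to immune cells. Many ligands bind a specific receptor chain together with a chain shared by several ligands. Most receptor chains of the haematopoietin kind work through Janus kinases and STAT transcription factors, while the IL-1 receptor family works through the adaptor MyD88 and IRAK kinases. Decoys and antagonists bind ligand or receptor without signalling. In the lung, epithelial IL-33 and IL-18 and macrophage IL-1 are known early signals of injury, and IL-6 has long been studied in pulmonary hypertension.

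Of the 85 genes, 48 reached 10 scaled reads in at least 4 libraries and were tested. Scaled reads are read counts that the authors divided by a factor per library. Of the 48, 1 was higher with NOS-null marrow at a Benjamini-Hochberg adjusted p under 0.05 (limma over 14008 genes) and none was lower. The gene is Il6ra. Without NOS-null marrow replicate 1 the number was 2 (Il1f9 and Il6ra higher), without NOS-null marrow replicate 4 it was 2 (Il6ra higher and Il6 lower), and it was 0 when the second NOS-null marrow lung or a WT marrow lung was left out. As reported, 1 of 48 is 2.08% of the tested members against 4.05% of all tested genes, or 1.87% higher and 2.18% lower. At an unadjusted p under 0.05 there were 12 of 48, or 25.0%, against 26.6% of all tested genes. In 6 of 48 (12.5%) all 4 values of 1 marrow group lay above all 4 of the other, 4 higher and 2 lower with NOS-null marrow, against 17.1% of all tested genes (7.82% higher and 9.29% lower). All 3 shares were below those of all tested genes, but they rest on few of the same 48 genes. They do not set the family apart from all tested genes. The median log2 change, NOS-null marrow minus WT marrow on log2(scaled reads + 1), which understates changes of low genes, was 0.11 over the 48 and 0.00051 over all tested genes. Of 13 ligands 7 had a positive change, of 30 receptor chains 18 and of 4 decoys and antagonists 4, with medians of 0.00075, 0.16 and 0.49. Of all 14008 tested genes 7017 had a positive change. By family, the 14 tested members of the IL-1 family held 7 of the 12 genes with an unadjusted p under 0.05. All 6 tested members of the IL-10 family had a positive change (median 0.41), the smallest being 0.034 for Il10rb. Both tested chains of the common beta group, Il3ra and Il5ra, had a negative change (median −0.44). None of these genes was called, and the groups are small.

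Libraries summed to 7767065 to 8625142 scaled reads. Nos2 was lower in every NOS-null marrow lung, at 13.3 to 43.5 scaled reads against 87.4 to 115 in WT marrow lungs (limma adjusted p = 0.0221). Nos3 did not pass (adjusted p = 0.701), and Nos1 was listed at 0 in all lungs but NOS-null marrow replicate 4, at 1.09. NOS-null marrow replicate 1 stood apart. Its 10 neutrophil marker genes summed to 42221 FPKM (reads scaled to transcript length and library size), with none of the 10 at 0, against 1771 to 3877 in the other 3 NOS-null marrow lungs and 622 to 1699 in WT marrow lungs. Most of the 42221 was S100a8 (25736 FPKM) and S100a9 (12719 FPKM). Ltf was level between NOS-null marrow replicates 1 and 4, at 101.6 FPKM in each, and the other markers were each highest in replicate 1. None of the 9 tested neutrophil markers was called. NOS-null marrow replicate 1 was the highest of the 8 libraries for 15 of the 48 interleukin family genes (31.2%) and for 23.0% of all tested genes, and the lowest for 12 (25.0%) and for 21.7%.

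**Figure D1:**
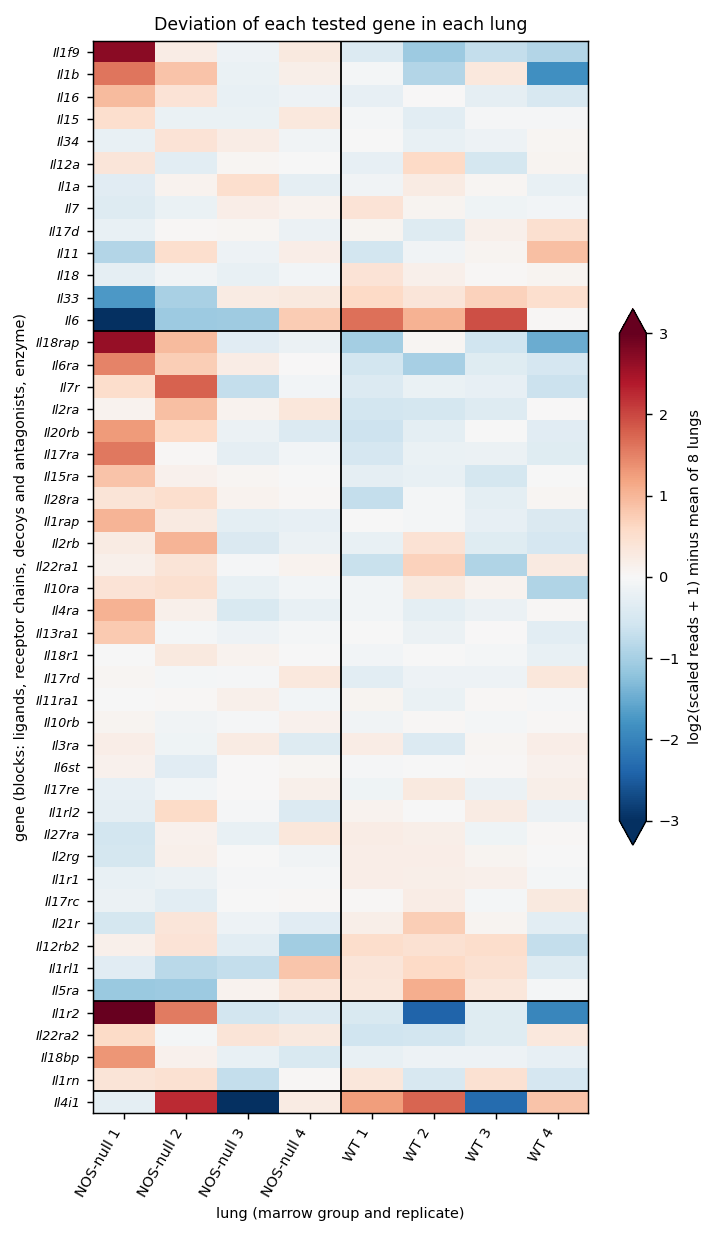
Colour shows log2(scaled reads + 1) minus the mean of the 8 lungs for the 48 tested genes (rows, in blocks by role) in each lung (columns, NOS-null marrow left of the line and WT marrow right of it). NOS-null marrow replicate 1 holds deep colours for Il1f9, Il18rap and Il1r2 above the mean and for Il6 and Il33 below it.

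The sequences just before the transcription starts of 3 genes are shown because the results turn on them: Il6ra, the only called gene, Il6, its ligand, and Il1r2, the decoy with the widest spread. Each is the 250 bases before an annotated start (RefSeq, GRCm38.p6, the same assembly as mm10), written 5′ to 3′ on the gene's strand. Capitals mark matches, on either strand, to 3 motifs: GGNNTTTCC, a short form of the NF-kB site, TTGCNNAA, a form of the C/EBP site, and TTCNNNGAA, the STAT site.
Il6ra, chr3:89913197-89913446, minus strand: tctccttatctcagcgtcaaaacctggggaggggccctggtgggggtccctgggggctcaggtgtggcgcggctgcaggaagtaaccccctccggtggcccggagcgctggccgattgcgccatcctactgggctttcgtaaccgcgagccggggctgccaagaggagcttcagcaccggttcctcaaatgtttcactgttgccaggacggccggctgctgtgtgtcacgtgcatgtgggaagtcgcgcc
Il6, chr5:30012864-30013113, plus strand: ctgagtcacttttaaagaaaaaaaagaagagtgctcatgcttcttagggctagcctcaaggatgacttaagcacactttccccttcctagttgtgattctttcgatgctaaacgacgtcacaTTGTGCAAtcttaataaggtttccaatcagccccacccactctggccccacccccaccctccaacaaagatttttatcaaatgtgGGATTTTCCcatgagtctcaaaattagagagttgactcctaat
Il1r2, chr1:40085843-40086092, plus strand: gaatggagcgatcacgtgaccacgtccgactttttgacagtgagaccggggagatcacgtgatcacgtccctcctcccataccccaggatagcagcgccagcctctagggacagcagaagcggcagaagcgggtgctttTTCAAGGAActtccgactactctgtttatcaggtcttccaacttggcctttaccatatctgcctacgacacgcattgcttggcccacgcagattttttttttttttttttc
The Il6 window held a match to the C/EBP motif and a match to the NF-kB motif, which did not overlap each other. The Il1r2 window held a match to the STAT motif, and the Il6ra window held none of the 3. Of 32851 such windows of the genome, 4.93% held the NF-kB motif, 9.56% the C/EBP motif and 7.02% the STAT motif. Among 52 such windows, also of 250 bases, of 39 tested members, 6 held the NF-kB motif (11.5%), 10 the C/EBP motif (19.2%) and 5 the STAT motif (9.62%). These matches describe letters and are not evidence of binding.

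Among ligands, the levels per length were highest for Il33, Il1b and Il18. Il33 (chromosome 19, 29925113 to 29960718), the alarmin that in mouse lung is made mainly by alveolar type 2 cells, averaged 39.4 ± 22.9 FPKM with NOS-null marrow and 71.3 ± 6.53 FPKM with WT marrow (SD, n = 4 each, as throughout). Il1b, the inflammatory cytokine of myeloid cells, averaged 62.6 ± 35.7 and 27.6 ± 15.7 FPKM in NOS-null and WT marrow lungs. Il18, which like Il1b is activated by caspase 1, averaged 15.3 ± 0.91 FPKM in NOS-null marrow lungs and 19.5 ± 2.44 in WT marrow lungs. The other 10 tested ligands had mean levels over the 8 lungs of 0.90 (Il11) to 9.90 FPKM (Il34). Over the 8 lungs the ranges of Il33 and Il1b overlapped, as did those of Il34 and Il16. In WT marrow lungs Il33, at 63.2 to 78.7 FPKM, was above Il1b, at 10.1 to 45.6 FPKM. With NOS-null marrow Il1b was above Il33 in replicates 1 and 2 and below it in replicates 3 and 4.

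**Figure D2:**
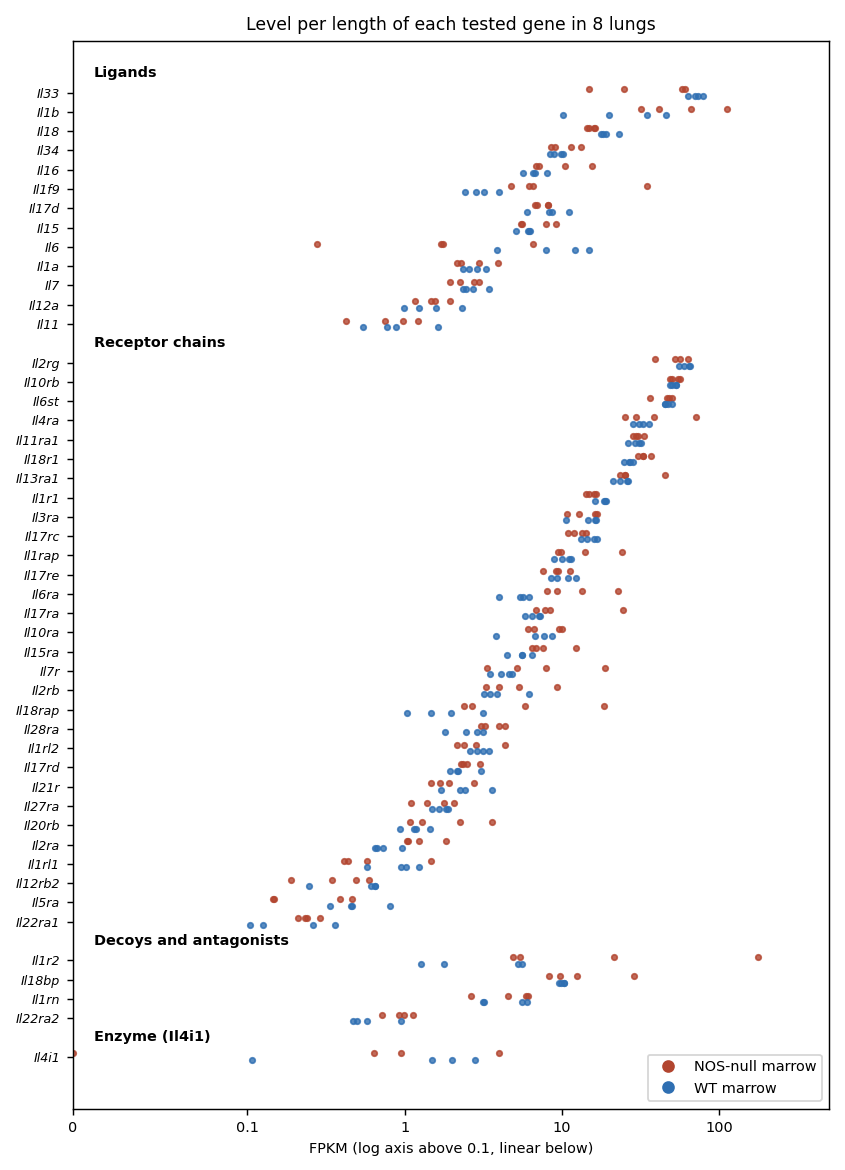
Each point is the FPKM of a gene in 1 lung, NOS-null marrow above WT marrow in each row, with genes ordered by mean level within their role (x axis logarithmic above 0.1 and linear below). Il2rg, Il33, Il10rb and Il6st lead, with means over 8 lungs of 56.8, 55.3, 51.7 and 46.0 FPKM. The points of Il1r2 run from 1.28 to 177 FPKM.

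Il33 stood at 289, 486, 1125 and 1172 scaled reads in NOS-null marrow replicates 1 to 4, against 1435, 1234, 1535 and 1358 in WT marrow replicates 1 to 4. The groups did not overlap, and NOS-null marrow replicates 1 and 2 were far below replicates 3 and 4. The log2 change was −1.08 (SE 0.38, limma adjusted p = 0.115), with −0.68 when NOS-null marrow replicate 1 was left out and −0.27 when replicate 2 was left out too. The 7 alveolar type 2 markers, none at 0 throughout, summed to 16930 FPKM in the first NOS-null marrow lung and 21818 to 24073 in the other 3, against 22249 to 27532 with WT marrow. Most of each sum was Sftpc, at 12994 to 18929 FPKM with NOS-null marrow and 17664 to 22501 with WT marrow. Lamp3 had separated groups, at 97.7 to 150 FPKM with NOS-null marrow against 164 to 206, and the other markers overlapped. None of the 7 was called, and the part of these markers in the Il33 difference was not tested.

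Il6 (chromosome 5, 30013114 to 30019975), the ligand behind the acute phase response, had the most negative log2 change of the tested members. It stood at 2.05, 12.5, 12.8 and 47.9 scaled reads with NOS-null marrow, against 89.4, 58.1, 109 and 28.4 with WT marrow. NOS-null marrow replicate 4 lay above WT marrow replicate 4, so the groups overlapped. The log2 change was −2.32 (SE 0.72, limma adjusted p = 0.0843), so Il6 missed the threshold. It passed when NOS-null marrow replicate 4 was left out, at −2.96 (adjusted p = 0.0277), and over the 8 fits without 1 library the adjusted p ran up to 0.206.

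Il1b stood at 1047, 619.5, 296 and 387 scaled reads with NOS-null marrow, against 327, 186, 428 and 94.5 with WT marrow. NOS-null marrow replicates 1 and 2 were above every WT marrow lung, and replicates 3 and 4 lay among them (log2 change 1.22, SE 0.48, limma adjusted p = 0.143, and 0.89 without NOS-null marrow replicate 1). The Il1b change was 0.81 when WT marrow replicate 4 was left out, and with NOS-null marrow replicates 1 and 2 both left out it was 0.60. Il1a, the sister ligand of the same receptor, averaged 41.9 ± 12.1 and 41.0 ± 6.00 scaled reads in NOS-null and WT marrow lungs. Il1f9, the table's symbol for the epithelial and myeloid ligand IL-36 gamma, stood at 418, 73.9, 57.2 and 78.3 with NOS-null marrow, against 47.7, 29.0, 38.4 and 34.0 with WT marrow. These groups did not overlap (log2 change 1.54, SE 0.52, limma adjusted p = 0.104). Without NOS-null marrow replicate 1 the Il1f9 change was smaller, at 0.90, and passed (adjusted p = 0.0451), the lowest adjusted p of the 8 fits without 1 library, in which it ran up to 0.196.

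Il18, of the IL-1 family too, had its lower values with NOS-null marrow. It stood at 78.9, 88.5, 81.8 and 89.2 scaled reads with NOS-null marrow, against 127, 105, 97.6 and 100.2 with WT marrow. The groups did not overlap and the 4 NOS-null marrow values lay close together (log2 change −0.34, SE 0.13, limma adjusted p = 0.129). Il16, a chemoattractant for CD4 cells, was at 617, 421, 272 and 285 with NOS-null marrow, against 268, 322, 263 and 227 with WT marrow, and its exons share bases with Stard5 on the opposite strand. The remaining tested ligands Il7 and Il15, survival factors of lymphocytes, Il34, a ligand of the macrophage receptor Csf1r, Il17d, Il12a and Il11 had overlapping groups.

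The other 26 ligand genes were not tested. Of all 37 untested members, 10 were listed at 0 in every lung: the ligands Il3, Il9, Il22, Il25, Il28a, Il28b, Il31, Il1f8 and Il1f10 and the receptor gene Il11ra2, a near-identical copy of Il11ra1 whose reads can go to either. The highest value of any untested member was 42.7 scaled reads, for Il12b, a subunit of IL-12 and IL-23, in NOS-null marrow replicate 2, against 4.35 to 13.8 in the other 3 NOS-null marrow lungs and 4.73 to 6.96 in WT marrow lungs. The type 2 cytokine genes Il4, Il5 and Il13 averaged 1.32 ± 1.38, 1.28 ± 1.32 and 0.27 ± 0.54 scaled reads with NOS-null marrow. With WT marrow Il4 and Il5 averaged 3.14 ± 0.94 and 3.37 ± 1.95, and Il13 was listed at 0. The commonest positive value of a library, 0.937 to 1.09, is near the value of 1 read, so differences among these genes were not detectable at this depth. Il10, the anti-inflammatory ligand, reached at most 2.18 in NOS-null marrow lungs and 0.99 in WT marrow lungs.

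Among receptor chains Il6ra was the gene that rose. Il6ra (chromosome 3, 89869324 to 89913196) encodes the alpha chain that binds IL-6, as a membrane protein on hepatocytes and some leukocytes including neutrophils and macrophages, and in a soluble form. It stood at 594, 349.8, 245 and 211 scaled reads in NOS-null marrow replicates 1 to 4, against 143, 105, 163 and 147 in WT marrow replicates 1 to 4. Every NOS-null marrow lung was above every WT marrow lung, and the highest values were in NOS-null marrow replicates 1 and 2. The means were 349.7 ± 173 and 139.5 ± 24.5 (log2 change 1.22, SE 0.28, 95% interval 0.59 to 1.85, limma adjusted p = 0.045). Without NOS-null marrow replicate 1 the change was 0.92 and still passed (adjusted p = 0.0314). It no longer passed when the second NOS-null marrow lung was left out (adjusted p = 0.124) or any of the 4 WT marrow lungs (0.128, 0.106, 0.0857 and 0.0802 for replicates 1 to 4), nor without both NOS-null marrow replicates 1 and 2 (log2 change 0.72, adjusted p = 0.0784). The log2 change was positive in all of these fits. Over all genes the number called also varied with the library left out, from 71 without WT marrow replicate 1 to 798 without NOS-null marrow replicate 4, against 567 with all 8. Summed markers of neutrophils (above) and of monocytes and macrophages were highest in the same lungs. The 8 monocyte and macrophage markers, none at 0 throughout, summed to 561, 687, 367 and 368 FPKM with NOS-null marrow, against 241 to 359 in WT marrow lungs. None of the 8 was called, and not all followed the sum. Ly6c2, Emr1, Csf1r and Cd68 were each highest in NOS-null marrow replicates 1 and 2. But C1qa, C1qb and Mrc1 in replicate 1, and Ccr2 in replicate 2, lay within the WT marrow range. The 7 alveolar macrophage markers, none at 0 throughout, summed to 2240, 1616, 893 and 1095 FPKM with NOS-null marrow, against 628 to 793 in WT marrow lungs, but most of this sum was Chi3l3 (678 to 1993 against 493 to 602 FPKM). The markers did not move together. Ear2 was higher with NOS-null marrow (limma adjusted p = 0.0186) and Siglec5 was lower (1.94 to 2.78 against 5.72 to 7.83 FPKM, adjusted p = 0.0025), while Marco stood at 0 to 1.02 FPKM with NOS-null marrow against 2.92 to 3.33 with WT marrow (adjusted p = 0.0585). Their part in the Il6ra result was not tested.

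Il6st, the shared signalling chain gp130 through which IL-6 and IL-11 act, was nearly level. It stood at 2189, 1585, 2046 and 2114 scaled reads with NOS-null marrow, against 1974, 1992, 2073 and 2213 with WT marrow (log2 change −0.067, 95% interval −0.30 to 0.16, limma adjusted p = 0.707). The ratio of Il6ra to Il6st, in FPKM, was 0.454, 0.369, 0.2 and 0.167 with NOS-null marrow, against 0.0881 to 0.131 in WT marrow lungs. Within the IL-6 system the alpha chain was thus higher, the ligand was lower without passing, and the shared chain did not pass. Il11ra1, the alpha chain for IL-11, averaged 395 ± 26.4 scaled reads in NOS-null marrow lungs and 383 ± 31.5 in WT marrow lungs.

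**Figure D3:**
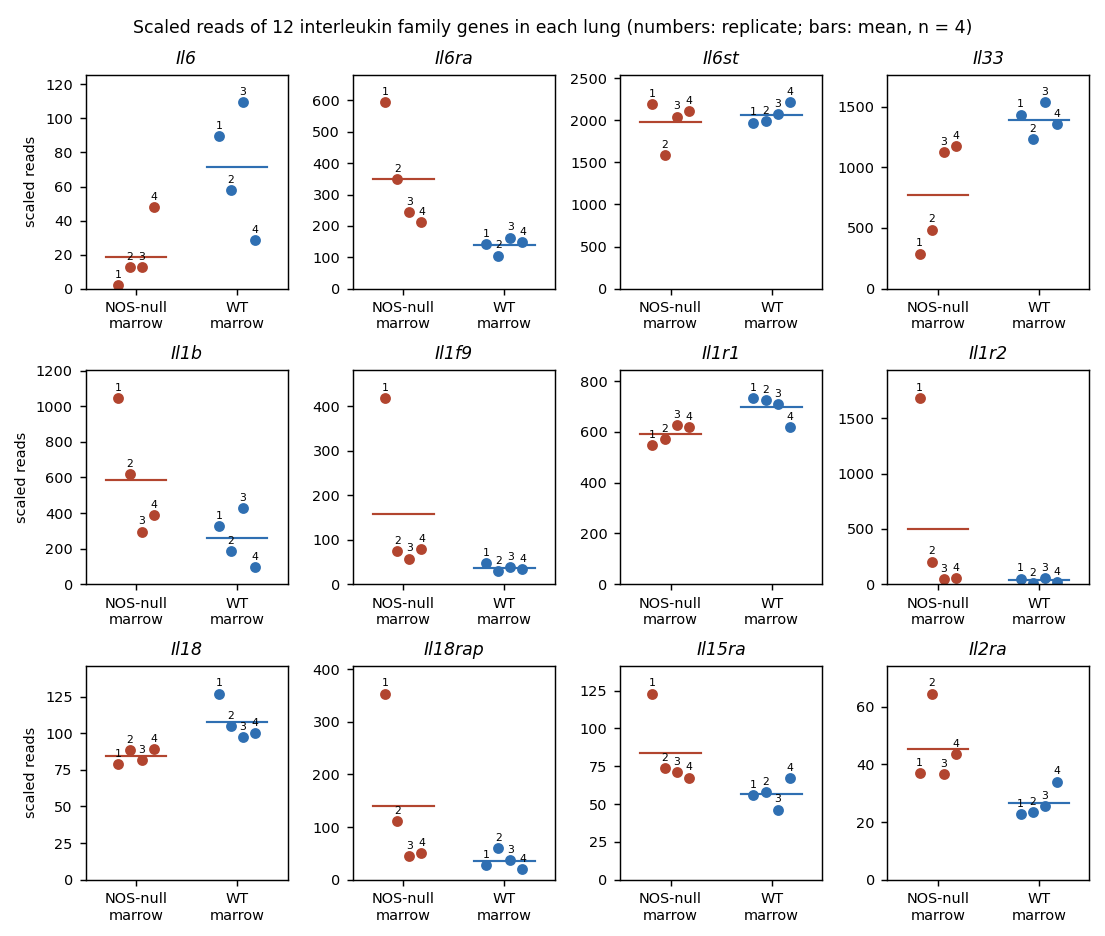
Points are the scaled reads of 12 genes in each of the 4 NOS-null marrow lungs (left, red) and 4 WT marrow lungs (right, blue), numbered by replicate, and bars are group means. Il6ra lies between 211 and 594 with NOS-null marrow and between 105 and 163 with WT marrow, while for Il1r2 and Il18rap the mean of the NOS-null marrow group is carried by replicate 1.

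The receptor chains with the highest levels per length were Il2rg, the common gamma chain of lymphocyte cytokine receptors, Il10rb, shared by IL-10 and its relatives, and Il6st. Il2rg stood at 459, 741, 661 and 619 scaled reads with NOS-null marrow, against 764, 757, 703 and 652 with WT marrow (log2 change −0.23, 95% interval −0.53 to 0.066, limma adjusted p = 0.288, and −0.095 without NOS-null marrow replicate 1, the lowest lung). Il10rb stood at 753, 664, 692 and 774 with NOS-null marrow, against 666, 734, 687 and 727 with WT marrow (log2 change 0.034, 95% interval −0.14 to 0.20, limma adjusted p = 0.806). For both genes the groups overlapped, and each shares exon bases on the same strand with a neighbouring gene model. The 6 B cell markers, none at 0 throughout, summed to 7.55, 22.3, 77.7 and 75.8 FPKM with NOS-null marrow, against 106 to 206 in WT marrow lungs, and their part in the Il2rg values was not tested.

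Of the chains for IL-2 and IL-15, Il2ra and Il15ra had separated groups and Il2rb did not, and none passed. Il2ra (CD25), the high-affinity IL-2 chain of regulatory and activated T cells, stood at 36.9, 64.6, 36.5 and 43.5 scaled reads with NOS-null marrow, against 22.9, 23.4, 25.6 and 34.0 with WT marrow. The groups did not overlap (log2 change 0.73, SE 0.23, limma adjusted p = 0.0843). Il15ra, which presents IL-15 to neighbouring cells, stood at 123, 73.9, 71.0 and 67.4 with NOS-null marrow, against 55.6, 58.1, 46.3 and 67.1 with WT marrow. Its groups were separated by a narrow gap (log2 change 0.52, SE 0.21, limma adjusted p = 0.147, and 0.32 without NOS-null marrow replicate 1). Il7r, the IL-7 receptor of lymphocytes, stood at 199, 473, 83.8 and 129 with NOS-null marrow, against 103, 121, 116 and 87.9 with WT marrow, with overlap. The 8 T cell markers, none at 0 throughout, summed to 48.1, 110.2, 34.8 and 35.6 FPKM with NOS-null marrow, against 23.0 to 36.6 in WT marrow lungs, and their part in these values was not tested. Il2rb, the chain that IL-2 and IL-15 share, stood at 112, 193, 69.0 and 82.7 with NOS-null marrow, against 80.5, 128, 72.9 and 66.2 with WT marrow, with overlap. NOS-null marrow replicate 2 held the highest Il7r, Il2ra and Il2rb and the highest T cell sum. The 7 natural killer (NK) cell markers, none at 0 throughout, were summed too. Their sums were 47.7, 41.4, 25.6 and 21.6 FPKM with NOS-null marrow, against 39.9 to 63.0 with WT marrow. Of the 5 tested, 2 were called lower, against 2.18% of all tested genes. With NOS-null marrow Gzma stood at 8.89 to 18.8 FPKM against 24.5 to 33.0, but Nkg7 at 8.57 to 29.3 against 8.93 to 17.9. The part of NK cells in the Il2rb values was not tested.

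Il28ra, the table's symbol for Ifnlr1, the epithelial receptor chain of type III interferons, stood at 126, 137, 103 and 97.9 scaled reads with NOS-null marrow, against 57.6, 91.8, 77.9 and 100.2 with WT marrow. The groups overlapped by 1 lung of each (log2 change 0.51, SE 0.19, limma adjusted p = 0.125), and its ligand genes Il28a and Il28b were among those at 0. Several other receptor chains were high in NOS-null marrow replicate 1. Il17ra, the common chain for IL-17 cytokines, was at 774 there, against 214 to 266 in the other 3 NOS-null marrow lungs and 183 to 229 with WT marrow. Il4ra, the chain for IL-4 and IL-13, was at 2919 there, against 1024 to 1581 in the other 3 NOS-null marrow lungs and 1155 to 1452 with WT marrow. Its partner Il13ra1 was at 1311, against 683 to 733 and, with WT marrow, 612 to 769.6.

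The IL-1 receptor genes lie side by side. On chromosome 1 from 40084692 to 40551707 (467.0 kb, GRCm38), the 6 protein-coding genes are Il1r2, Il1r1, Il1rl2, Il1rl1, Il18r1 and Il18rap, in this order. Their changes differed in sign and size and none passed. Il18rap, the accessory chain for IL-18, stood at 354, 111, 45.4 and 51.1 scaled reads with NOS-null marrow, against 27.8, 59.9, 37.4 and 19.9 with WT marrow (log2 change 1.52, SE 0.59, limma adjusted p = 0.138). Its groups overlapped, with NOS-null marrow replicates 1 and 2 above all WT marrow lungs, and without replicate 1 the log2 change was 0.91. Il18r1, the binding chain for IL-18 next to it, averaged 642 ± 68.8 in NOS-null marrow lungs and 561 ± 33.5 in WT marrow lungs. Il1r1, the signalling receptor for IL-1, stood at 546, 571, 626 and 620.0 with NOS-null marrow, against 733, 724, 709 and 619 with WT marrow (log2 change −0.24, SE 0.083, limma adjusted p = 0.114). WT marrow replicate 4 lay among the NOS-null marrow values and the other 3 above them. Il1rl1 (ST2), the receptor for IL-33, averaged 28.1 ± 17.8 in NOS-null marrow lungs and 37.2 ± 10.1 in WT marrow lungs. Gene values cannot separate its membrane form from its soluble decoy form. Il1rl2, the receptor for IL-36, averaged 42.8 ± 14.4 and 44.0 ± 5.28 in NOS-null and WT marrow lungs.

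Among decoys and antagonists, Il1r2 (chromosome 1, 40084692 to 40125230) binds IL-1 but lacks the signalling domain. Il1r2 had the widest range of the family in FPKM, at 1.28 to 177. It stood at 1683, 204, 46.3 and 51.1 scaled reads with NOS-null marrow, against 49.7, 12.2, 53.2 and 17.02 with WT marrow. NOS-null marrow replicates 1 and 2 were above every WT marrow lung, and replicates 3 and 4 lay within the WT marrow range (log2 change 2.59, SE 1.01, limma adjusted p = 0.14). Without NOS-null marrow replicate 1 the log2 change was 1.49 and without replicates 1 and 2 it was 0.81. The neutrophil marker sum was likewise highest in NOS-null marrow replicates 1 and 2, and its part in the values of Il1r2, Il1f9 and Il18rap was not tested. The NK cell marker sum (above) was highest in WT marrow replicate 2, and its part in the Il18rap values was not tested either. The ratio of Il1r2 to Il1r1 in FPKM was 12.4, 1.45, 0.297 and 0.334 with NOS-null marrow, against 0.0677 to 0.304 in WT marrow lungs. In NOS-null marrow replicates 1 and 2 the decoy was thus above the signalling receptor, and in the other 6 lungs below it.

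Il18bp, the secreted protein that traps IL-18, stood at 288, 125, 97.6 and 82.7 scaled reads with NOS-null marrow, against 98.4, 103, 102 and 95.5 with WT marrow (log2 change 0.39, SE 0.32, limma adjusted p = 0.455). Without NOS-null marrow replicate 1 the log2 change was 0.007. Il1rn, the IL-1 receptor antagonist, stood at 109, 115, 50.3 and 84.8 with NOS-null marrow, against 105, 59.0, 113 and 57.7 with WT marrow, with full overlap (log2 change 0.10, 95% interval −0.58 to 0.77, limma adjusted p = 0.864). Set against its ligands Il1a and Il1b in FPKM, its ratio was 0.0516, 0.0885, 0.0746 and 0.104 with NOS-null marrow, against 0.15, 0.138, 0.124 and 0.251 with WT marrow. These ratios did not overlap between groups and are given as a description. Il22ra2, the soluble decoy for IL-22, averaged 17.8 ± 3.32 in NOS-null marrow lungs and 11.8 ± 4.20 in WT marrow lungs. Il13ra2, the decoy for IL-13, was not tested, at 0.26 ± 0.52 with NOS-null marrow and 1.94 ± 1.79 in WT marrow lungs.

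**Figure D4:**
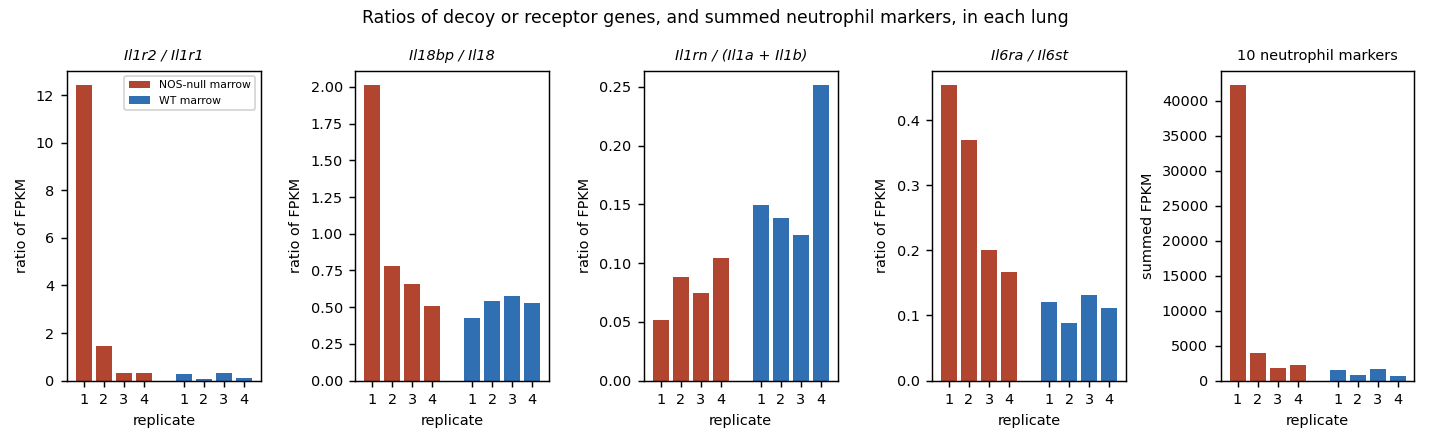
Bars give, for each of the 4 NOS-null marrow lungs (red) and 4 WT marrow lungs (blue), 4 ratios of FPKM and the summed FPKM of 10 neutrophil markers. The Il1r2 to Il1r1 ratio reaches 12.4 in the lung whose neutrophil sum is 42221, and the Il1rn ratio lies between 0.0516 and 0.104 with NOS-null marrow and between 0.124 and 0.251 with WT marrow.

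Il4i1, a secreted amino acid oxidase and not a cytokine, ranged from 0 to 61.3 scaled reads with NOS-null marrow, against 1.65 to 43.2 with WT marrow. Its exons share most of their bases with Tbc1d17 on the opposite strand and some with Nup62, so its values are uncertain. Exons of 16 of the 48 tested members share bases with another gene model, 14 of them with one on the opposite strand, among them Il6ra with the antisense model Gm42809 (242 of 8642 bases).

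**Figure D5:**
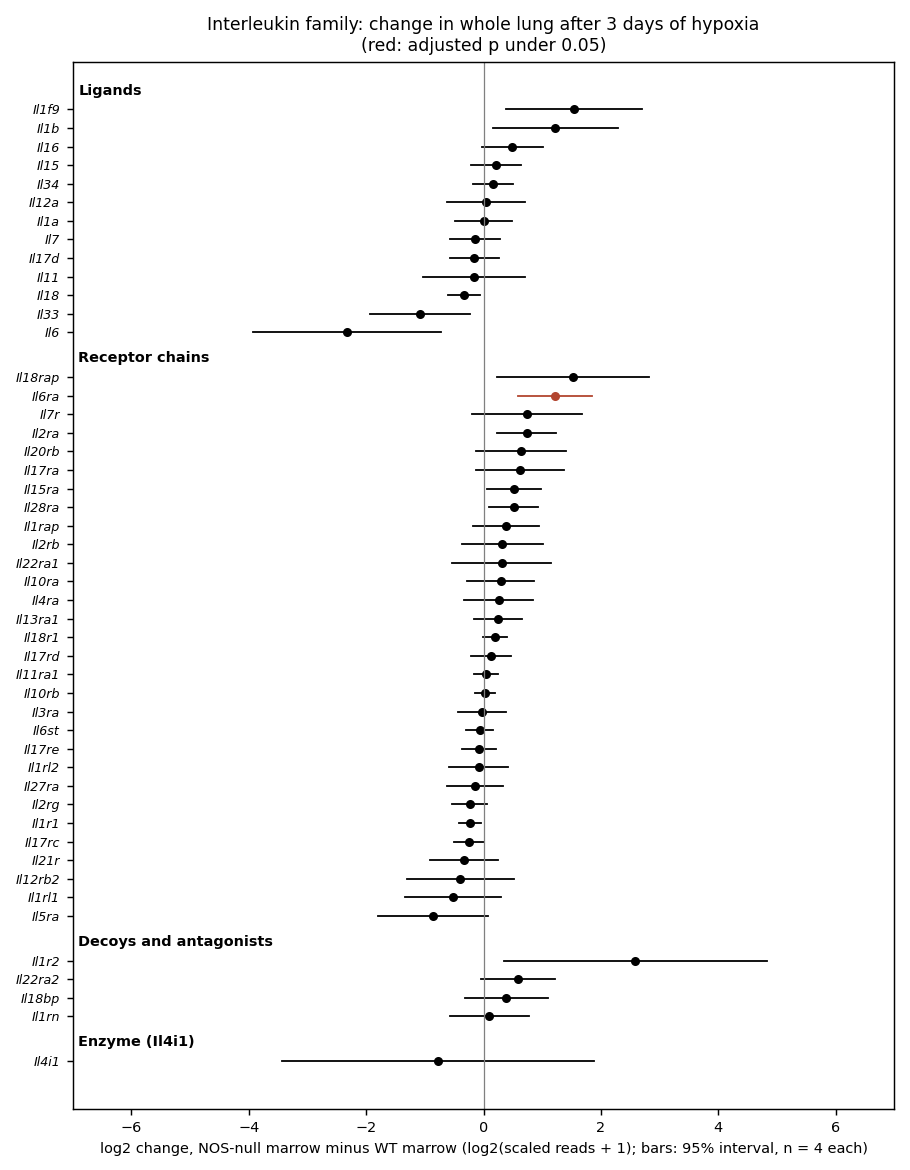
Points are log2 changes, NOS-null marrow minus WT marrow, of the 48 tested genes by role, with 95% intervals from limma (n = 4 each). Il6ra, in red at 1.22, is the gene with an adjusted p under 0.05, and Il1r2 (2.59), Il6 (−2.32) and Il1f9 (1.54) have larger changes with wider intervals.

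The genes that carry interleukin signals into the cell were read from a list of 61 kinases, STATs, suppressors, adaptors and partner receptors, of which 59 were tested. None passed (limma, adjusted p), against 4.05% of all tested genes, 19 had an unadjusted p under 0.05 (32.2% against 26.6%), and the median log2 change was 0.17. In 8 of the 59 all NOS-null marrow values lay above all WT marrow values (13.6%, against 7.82% of all tested genes), and in 0 below (against 9.29%). Leaving out NOS-null marrow replicate 3 brought the number that passed to 4 (Csf2rb2, Csf3r, Lifr and Stat2). Tollip, an inhibitor of IL-1 receptor signalling, averaged 910.2 ± 34.4 scaled reads in NOS-null marrow lungs and 741 ± 50.9 in WT marrow lungs (log2 change 0.30, limma adjusted p = 0.052). Stat5b, which acts below the IL-2 and common beta chain receptors, averaged 449.5 ± 33.9 in NOS-null marrow lungs and 352 ± 26.7 in WT marrow lungs (0.35, adjusted p = 0.0521). Csf3r, the neutrophil receptor for G-CSF, stood at 2543, 669, 354 and 522 with NOS-null marrow, against 218, 118, 287 and 114 with WT marrow (2.13, adjusted p = 0.0532). Csf3r is also among the neutrophil markers, which were highest in the same lung, and the part of these cells in its values was not tested. Stat2 averaged 558 ± 165 in NOS-null marrow lungs and 347 ± 42.3 in WT marrow lungs (0.65, adjusted p = 0.0599).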

How the data were processed

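Gene values came from lungs of 8 mice, 4 per marrow group, grouped by the sample titles. The design text gives both groups the same marrow, so it was not used for grouping. Per the labels' protocols, mRNA libraries were made with a KAPA kit and read as single ends on an Illumina sequencer. Whether strand was kept is not given in the sources used here. Per the submitters' processing notes the tools were CASAVA 1.8.2, TopHat2 2.0.13, Bowtie2 2.2.3, SAMtools 0.1.19 and Cufflinks 2.2.1 on mm10. The main table holds signal, here called scaled reads: read counts that the authors divided by a size factor for each library. The deposited FPKM table was used for levels between genes and as an alternative. Whole counts could not be recovered for all genes, so no count model was used.

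Scaled reads were increased by 1 and log2-transformed, and the 14008 genes that reached 10 scaled reads in 4 or more libraries entered limma 3.58.1 (trend, R 4.3.3) without other terms, with Benjamini-Hochberg adjustment over all of them. The method was tested on simulated data in which no lung stood apart. That test says nothing about the influence of NOS-null marrow replicate 1 on the calls. Values per library are given for members past 0.05 or with separated groups, for the 3 highest in FPKM of each role, and for the main ligand and receptor systems. Log2 changes are given for members with an unadjusted p under 0.05 and those 3 highest per role, and for 4 signalling genes. The members, roles and lists were chosen with earlier results of these data known. Positions and sequences are from RefSeq GRCm38.p6, in which all 85 members were matched, 3 of them by an older symbol. Exon overlaps are from GENCODE. The alternatives were other pseudocounts, filters, scalings, the FPKM table, robust fitting, the replicate block and leaving out libraries.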

Additional observations from a re-analysis of the deposited data

Results flagged for a closer look

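Among the tested interleukin family genes 96 sets of 4 lungs were examined for a lung far from the other 3, and 7 held one, where chance gives about 1 in 20. In 5 of the 7 the lung was NOS-null marrow replicate 1. It held 1683 scaled reads of Il1r2 (the next lung of its group held 204), 774 of Il17ra (next 266), 418 of Il1f9 (next 78.3), 1311 of Il13ra1 (next 733) and 123 of Il15ra (next 73.9). WT marrow replicate 4 held the lowest value of Il12rb2, an IL-12 receptor chain, at 5.67 scaled reads with the next at 14.1. WT marrow replicate 2 held the lowest value of Il15, at 45.9 with the next at 54.6.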

How the results depend on the processing

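Under 18 alternatives the number of called interleukin family genes, 1 as reported (Il6ra), was also 1 with pseudocounts of 0.5 and 5, a filter of 30 scaled reads, median of ratios rescaling and quantile normalization. It was 0 with no filter on low values, with the FPKM table (log2(FPKM + 0.1)), with robust fitting, with the replicate block and with NOS-null marrow replicates 1 and 2 both left out. Without 1 library it ran from 0 to 2. Il6ra kept a positive change throughout and had adjusted p = 0.0524, 0.051, 0.0617, 0.0658 and 0.0784 under these 5 alternatives. The signalling genes called, 0 as reported, were 2 with the filter of 30 (Stat5b and Tollip), 1 with quantile normalization (Csf3r) and 0 to 4 without 1 library (0 with the replicate block).

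Single genes were refitted where their log2 change is given. Among these the sign changed for genes that were not called: Il10rb (−0.012 with quantile normalization, and −0.0017 to 0.072 without 1 library), Il1rn (−0.059 to 0.35 without 1 library), Il6st (−0.12 to 0.038 without 1 library), and, with NOS-null marrow replicates 1 and 2 both left out, Il18bp (−0.15), Il1rn (−0.29) and Il6st (0.013). The cause of these differences was not tested. The labels name no link between lungs of equal replicate number. Correlations of deviations between lungs of the same number were 0.043, 0.17, −0.0027 and 0.15. Between lungs of different numbers they ran from −0.18 to 0.11. So few values cannot decide whether equal numbers pair the samples, and the replicate block is given as an alternative. With that block 135 of all tested genes were called, against 567 as reported. Depth limits the ligands of few reads, and most type 2, IL-10 and IL-17 ligands could not be compared.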
